A study of Mus musculus with 4 samples.

Results

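Genes that mark the endothelial cells of the liver were examined in RNA from whole mouse liver. The list holds 36 genes, and their probes were taken by gene name among the probes that are not controls. These were 46 of 39429 probes on the array, and 36 of 30199 gene names. A probe counted as measured where the scanner software called it well above background in 3 or 4 of the 4 channels of a treatment, and 34 of the 36 genes had such a probe. Emcn, an endothelial surface sialomucin, was well above background in 0 channels of RNA labelled AAV_Cre and 1 channel of RNA labelled AAV_Null. Wnt9b, a Wnt ligand of the central vein, was well above background in 1 channel of each. Neither was tested. Of the 34, 30 had a probe well above background in all 8 channels, and Gata2, Sox7, Tek and Wnt2 were measured in fewer.

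All mice were female C57B/6 animals, 8 to 10 weeks old, with both copies of Trib1 floxed. Trib1 encodes a pseudokinase that binds the COP1 ubiquitin ligase. Control animals received an adeno-associated virus called AAV_Null, and knockout animals received AAV_Cre, so the floxed allele and a virus are shared by both groups. Livers were taken 1 week after the virus and a fast of 4 hours. The labels call the knockout liver-specific, do not give the promoter of Cre, and do not say whether an RNA came from 1 animal or a pool. Each of 4 arrays on 1 slide was hybridised with 1 RNA of each treatment, and each RNA was used once. Cy5 carried AAV_Cre on arrays 1 and 2, and Cy3 carried it on arrays 3 and 4. The 2 dye orientations therefore also hold different RNA pairs, and dye and RNA pair cannot be told apart.

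Sinusoidal endothelial cells line the liver's capillaries. They are fenestrated, lack an organised basement membrane and clear waste macromolecules from the blood through scavenger receptors, while the endothelium of larger vessels is continuous. Liver endothelial cells also release Wnt ligands, R-spondin and BMP proteins, which set the zonation of hepatocytes and the expression of hepcidin. In RNA from a whole organ, fewer endothelial cells and less RNA per endothelial cell cannot be told apart.

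Some of the probes whose values are given below are shown here. Tek and Tie1 encode the 2 receptors of the angiopoietin system and are close relatives, so their probes are shown with capitals at the bases that were identical in an alignment, 39 of 57 aligned bases.
Tek: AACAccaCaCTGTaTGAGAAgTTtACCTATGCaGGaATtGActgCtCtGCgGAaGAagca
Tie1: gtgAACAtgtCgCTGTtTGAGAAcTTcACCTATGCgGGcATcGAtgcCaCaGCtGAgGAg
Nos3 and Ets1 each had another probe in the same transcript with a different pattern over the arrays, and 1 probe of each is shown in lower case, with no part marked. For Nos3 this is the dimmer probe, while the fitted Nos3 ratio comes from the brighter one. For Ets1 it is the brighter probe. The Nos3 probe is at chr5:23889636-23889695 on mm9, the build of the array files, and the Ets1 probe is at chr9:32561826-32561885.
Nos3: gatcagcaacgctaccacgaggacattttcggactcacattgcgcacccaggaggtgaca
Ets1: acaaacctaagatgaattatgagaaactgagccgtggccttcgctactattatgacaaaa

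Clec4g, Stab2 and Fcgr2b, whose log2 ratios lay below 0 on 4 of 4 arrays, are shown with the 250 bases before their starts, from RefSeq on GRCm38.p6 and written in the direction of transcription. Capitals mark GGAAG or its reverse CTTCC, the core read by ETS factors, a family that includes Erg and Ets1. The windows are chr8:3720652-3720901, chr10:87007943-87008192 and chr1:170976072-170976321, all on the minus strand.
Clec4g: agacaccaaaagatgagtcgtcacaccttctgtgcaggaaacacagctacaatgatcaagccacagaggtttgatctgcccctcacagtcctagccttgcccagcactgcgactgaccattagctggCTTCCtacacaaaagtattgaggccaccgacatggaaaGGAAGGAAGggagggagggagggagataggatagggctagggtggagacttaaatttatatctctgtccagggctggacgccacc
Stab2: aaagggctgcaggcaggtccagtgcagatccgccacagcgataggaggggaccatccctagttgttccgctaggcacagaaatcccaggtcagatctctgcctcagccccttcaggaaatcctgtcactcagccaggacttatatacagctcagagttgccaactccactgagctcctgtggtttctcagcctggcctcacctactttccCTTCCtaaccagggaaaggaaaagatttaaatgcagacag
Fcgr2b: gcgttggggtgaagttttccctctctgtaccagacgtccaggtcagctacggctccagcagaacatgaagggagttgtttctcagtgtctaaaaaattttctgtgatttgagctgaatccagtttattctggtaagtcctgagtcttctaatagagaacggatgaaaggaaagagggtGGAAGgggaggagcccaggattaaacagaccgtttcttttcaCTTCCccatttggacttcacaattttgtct

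The letters GGAAG were found on either strand 3 times before Clec4g, with 2 of the matches sharing a G, 1 time before Stab2 and 2 times before Fcgr2b. RefSeq promoters were found for 19 of the 36 genes, 24 promoters in all. GGAAG was in 66.7% of these and in 64.1% of all 32851 promoters. The letters AGATAA, which GATA proteins bind, were in 4.17% of them against 9.99% of all promoters, read on both strands. The letters ACAAT, which SOX proteins bind, were in 25.0% against 27.7%, read in the same way. The shares for GGAAG and ACAAT lay within 3 percentage points of those of all promoters.

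On each array 43020 spots were not controls, 51.0% to 58.7% of them were well above background in a given channel, and 0 were saturated. Over 16081 genes, limma with a treatment effect and a dye effect called 452 at an adjusted p under 0.05 (Benjamini-Hochberg), 292 higher and 160 lower in RNA labelled AAV_Cre. These calls rest on all 4 arrays, since 13, 0, 37 and 0 genes were called in limma without arrays 1, 2, 3 and 4, where 2103 to 3307 genes had an unadjusted p under 0.05. Trib1 itself went against the label: its brightest probe read 0.64, 1.02, 1.09 and 1.01 on arrays 1 to 4, and the fitted log2 ratio was 0.94 ± 0.079 (SE, n = 4 arrays, adjusted p = 0.021). The other Trib1 probes gave 1.29 and -0.047, and the files do not say which probes lie in the floxed part. All directions below therefore belong to the library labelled AAV_Cre over the library labelled AAV_Null.

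Of the 34 measured endothelial genes, 0 were called in either direction, against 2.81% of all genes. None was thus called higher, against 1.82% of all genes, or lower, against 0.995%. Without adjustment, 12 had p under 0.05 in limma with a ratio below 0, against 11.1% of all genes, and 3 with a ratio above 0, against 11.6%. These p-values rest on how far arrays of 1 orientation differ, and leave out the difference between orientations. In limma without a dye effect, 7 of the 34 had an unadjusted p under 0.05 in either direction, against 2272 of 16081 genes. The fitted log2 ratio was below 0 for 24 of 34 genes, against 50.8% of all genes. Its median over the list was -0.11, with a range from -0.35 to 0.35, and the median of all genes was -0.0029. The median of the list by array was -0.0042, -0.0070, -0.25 and -0.20, so the lower values came from arrays 3 and 4. On those arrays 28 and 21 of the 34 genes were below 0, against 17 and 17 on arrays 1 and 2. The values of all 34 genes are plotted by array, grouped by what the genes do.

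**Figure D1:**
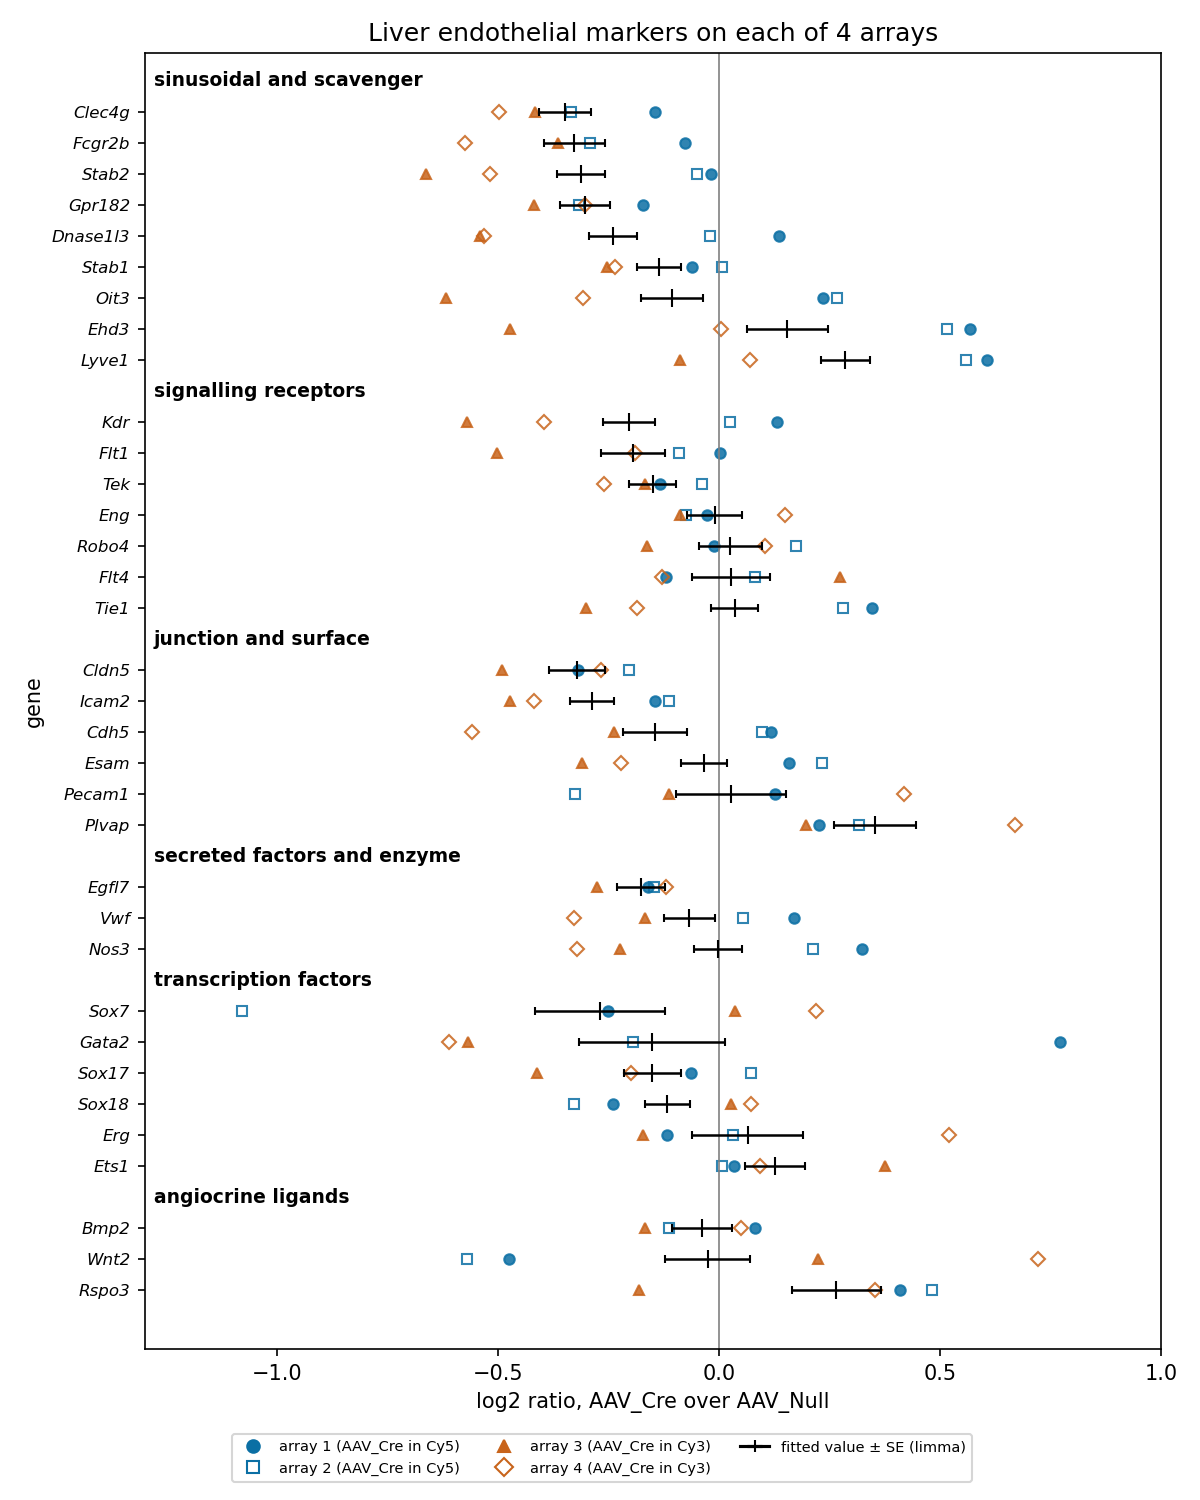
Log2 ratio of AAV_Cre over AAV_Null (horizontal axis) for 34 endothelial genes, grouped by role, with a blue point for arrays 1 and 2 (AAV_Cre in Cy5), an orange point for arrays 3 and 4 (AAV_Cre in Cy3) and a black bar for the limma value ± SE over 4 arrays. The blue points lie to the right of the orange points for most scavenger genes, and the fitted values run from -0.35 for Clec4g to 0.35 for Plvap.

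The 9 sinusoidal and scavenger genes held most of the lowest ratios. Of these 9, 7 had a fitted ratio below 0, and the median of the 9 was -0.24, but 0 of 9 passed the adjusted threshold in limma. Unadjusted, limma gave p under 0.05 for 6 of the 9 with a ratio below 0, against 11.1% of all genes. With a ratio above 0 it was 1 of 9, against 11.6%. Clec4g, a C-type lectin of sinusoidal endothelium, had normalised log2 intensities of 12.20, 12.03, 12.47 and 12.62 in RNA labelled AAV_Cre and 12.35, 12.36, 12.89 and 13.12 in RNA labelled AAV_Null. The intensities of the treatments overlapped across arrays, while the AAV_Null channel was the brighter on each array. The log2 ratios were -0.15, -0.34, -0.42 and -0.50, which gave -0.35 ± 0.059 (SE, n = 4, limma adjusted p = 0.062), or 0.785 of the AAV_Null level.

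Stab2, the hyaluronan scavenger receptor stabilin-2, read 12.45, 12.28, 12.51 and 12.52 with AAV_Cre and 12.47, 12.33, 13.17 and 13.04 with AAV_Null. The difference between treatments was thus small on arrays 1 and 2, with log2 ratios of -0.017 and -0.051, and wide on arrays 3 and 4, with -0.66 and -0.52. Over 4 arrays it was -0.31 ± 0.054 (SE, limma adjusted p = 0.065). Its other 2 probes, 77505 and 151275 bases away in other transcripts, gave -0.21 each, and 1 of them was above 0 on array 2 at 0.093.

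Fcgr2b, the inhibitory Fc gamma receptor with which sinusoidal cells clear immune complexes, read -0.077, -0.29, -0.37 and -0.58. Its probe has 10 spots per array, whose SD within an array was 0.031 to 0.082, so the spread between arrays was wider than that between spots. The fitted ratio was -0.33 ± 0.069 (SE, limma adjusted p = 0.089). Gpr182, an atypical receptor of endothelial cells, read -0.17, -0.32, -0.42 and -0.30, with a fitted value of -0.30 ± 0.057 (SE, limma adjusted p = 0.075). It was below 0 on each array, and the means of its orientations were -0.25 and -0.36.

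Dnase1l3, a secreted DNase that digests DNA in chromatin, read 0.14 and -0.020 on arrays 1 and 2 against -0.54 and -0.53 on arrays 3 and 4. Its fitted ratio was -0.24 ± 0.055 (SE, limma adjusted p = 0.10), and the 2 orientations did not overlap. Stab1, the other stabilin, read -0.061, 0.0057, -0.25 and -0.23. Oit3, a secreted zona pellucida domain protein, read 0.24 and 0.27 against -0.62 and -0.31, a change of sign between orientations. The fitted ratios were -0.14 for Stab1 and -0.11 for Oit3.

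Lyve1 and Ehd3 were the scavenger genes with ratios above 0. Lyve1, a hyaluronan receptor of sinusoidal and lymphatic endothelium, had log2 intensities of 9.93, 9.70, 9.45 and 9.80 with AAV_Cre and 9.32, 9.14, 9.54 and 9.73 with AAV_Null. Its log2 ratios of 0.61 and 0.56 on arrays 1 and 2 stood against -0.089 and 0.069 on arrays 3 and 4. The fitted value was 0.29 ± 0.055 (SE, limma adjusted p = 0.079), with a 95% interval of 0.14 to 0.43 that does not hold the spread between orientations. Ehd3, an endocytic recycling protein, read 0.57, 0.52, -0.47 and 0.0037, with a fitted ratio of 0.15 ± 0.092 (SE, adjusted p = 0.39).

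Among 7 signalling receptors, 4 had a fitted ratio below 0, and the adjusted p in limma was 0.15 or higher for each of the 7. Unadjusted, limma gave p under 0.05 for 3 of the 7, all with a ratio below 0, against 11.1% of all genes. Kdr, the main VEGF receptor of blood vessels, read 0.13, 0.024, -0.57 and -0.40 over 10 spots per array, with a spot SD of 0.033 to 0.051. The spots of 1 array thus agreed closely while the orientations lay on opposite sides of 0, and the fitted ratio was -0.20 ± 0.059 (SE, limma adjusted p = 0.15). Flt1, which binds VEGF and limits its supply to Kdr, read 0.0030, -0.090, -0.50 and -0.19, fitted at -0.20 (adjusted p = 0.21). Flt4, the VEGF-C receptor, read -0.12, 0.081, 0.27 and -0.13, with no order by orientation and a fitted ratio of 0.026.

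Tek, the angiopoietin receptor TIE2, read -0.13, -0.038, -0.17 and -0.26, below 0 on each array, with a fitted ratio of -0.15 ± 0.053 (SE, limma adjusted p = 0.20). Its probe was dim, well above background in 2 AAV_Cre and 3 AAV_Null channels. Tie1, its partner receptor, read 0.35 and 0.28 on arrays 1 and 2 and -0.30 and -0.19 on arrays 3 and 4, fitted at 0.035. The 2 relatives thus had different patterns on probes that share 39 of 57 aligned bases. Eng, the endoglin co-receptor for BMP9, read -0.026, -0.075, -0.089 and 0.15, and Robo4, a roundabout receptor of endothelium, read -0.012, 0.17, -0.16 and 0.10. Their fitted ratios were -0.010 and 0.025, with 95% intervals of -0.17 to 0.15 and -0.16 to 0.21.

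The 6 junction and surface genes differed among themselves. Cldn5, the endothelial tight junction claudin, read -0.32, -0.20, -0.49 and -0.27, fitted at -0.32 ± 0.063 (SE, limma adjusted p = 0.081), and its orientation means of -0.26 and -0.38 were close. Icam2, an adhesion molecule that binds leukocyte integrins, read -0.15, -0.11, -0.47 and -0.42, fitted at -0.29 ± 0.049 (SE, limma adjusted p = 0.064). Both were below 0 on 4 of 4 arrays.

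Cdh5, the VE-cadherin of adherens junctions, read 0.12 and 0.098 on arrays 1 and 2 and -0.24 and -0.56 on arrays 3 and 4. Esam, a tight junction adhesion molecule, read 0.16 and 0.23 against -0.31 and -0.22. Both changed sign with the orientation, and their fitted ratios were -0.15 and -0.035. Pecam1, the junctional adhesion molecule CD31, read 0.13, -0.33, -0.11 and 0.42, so that arrays of 1 orientation disagreed with each other, and its fitted ratio of 0.026 had a 95% interval of -0.30 to 0.35.

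Plvap, which forms the diaphragms of endothelial fenestrae and caveolae, was above 0 on each array. Its log2 intensities were 10.78, 10.55, 11.08 and 10.87 with AAV_Cre and 10.55, 10.24, 10.88 and 10.20 with AAV_Null. The log2 ratios of 0.23, 0.32, 0.20 and 0.67 gave 0.35 ± 0.092 (SE, limma adjusted p = 0.13), or 1.28 times the AAV_Null level. A second, dimmer probe of the transcript lay 8862 bases away and read -0.49, -0.20, -0.25 and 0.049, fitted at -0.22 (limma adjusted p = 0.22 over probes). The brighter Plvap probe exceeded the dimmer one by 0.45 to 0.71 on each array, so the direction for Plvap depends on the probe.

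Among secreted factors and enzymes, Egfl7, a matrix protein that guides vessel growth, read -0.16, -0.15, -0.28 and -0.12, below 0 on each array and with a fitted ratio of -0.18 ± 0.055 (SE, limma adjusted p = 0.16). Vwf, the von Willebrand factor of larger vessels, read 0.17 and 0.054 against -0.17 and -0.33, fitted at -0.068. Nos3, the endothelial nitric oxide synthase, read 0.32 and 0.21 against -0.22 and -0.32, fitted at -0.0026. For Vwf and Nos3 the orientations did not overlap.

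The 6 transcription factors had 0 genes with an unadjusted p under 0.05 in limma, against 3649 of all 16081 genes. Gata2, a GATA factor of continuous endothelium and blood progenitors, read 0.77, -0.20, -0.57 and -0.61 on a probe well above background in 2 AAV_Cre and 3 AAV_Null channels, fitted at -0.15 ± 0.17 (SE). Sox7, an endothelial SOX factor, read -0.25, -1.08, 0.036 and 0.22, fitted at -0.27 ± 0.15 (SE), and Sox18, of the same subfamily, read -0.24, -0.33, 0.027 and 0.073, fitted at -0.12. For Sox7 and Sox18 arrays 1 and 2 were the lower ones, the reverse of the scavenger genes. The Sox7 and Sox18 probes were dim, with mean log2 intensities of 7.25 and 7.21, against 9.58 for Lyve1, the dimmest scavenger gene. Whether intensity bears on this contrast was not tested. Sox17, the remaining member of that subfamily, read -0.063, 0.071, -0.41 and -0.20, with a fitted ratio of -0.15, and its second probe, 465 bases away, gave 0.022.

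Erg, an ETS factor that maintains endothelial identity, read -0.12, 0.031, -0.17 and 0.52, fitted at 0.065, and a second Erg probe was well above background in 0 channels. Ets1 read 0.033, 0.0059, 0.37 and 0.093, above 0 on each array and with a fitted ratio of 0.13 ± 0.067 (SE, limma adjusted p = 0.34).

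Of the 3 measured angiocrine ligands, Rspo3, the R-spondin that raises Wnt signalling around the central vein, read 0.41, 0.48, -0.18 and 0.35, fitted at 0.27 ± 0.10 (SE, limma adjusted p = 0.22). Wnt2, a Wnt ligand of the same region, read -0.48 and -0.57 on arrays 1 and 2 and 0.22 and 0.72 on arrays 3 and 4, fitted at -0.026. Its probe was dim, well above background in 3 AAV_Cre and 2 AAV_Null channels, and its orientation difference was the widest of the 34 genes. Bmp2, which acts on hepcidin, read 0.082, -0.11, -0.17 and 0.049, fitted at -0.038, with a 95% interval of -0.22 to 0.14.

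Counted by sign, 8 of 34 genes were below 0 on 4 of 4 arrays, namely Clec4g, Fcgr2b, Cldn5, Stab2, Gpr182, Icam2, Egfl7 and Tek, against 11.5% of 15781 genes measured on 4 arrays. Plvap and Ets1 were above 0 on 4 of 4 arrays, 2 of 34, against 12.1%. With 4 arrays, an exact test of the signs of 1 gene cannot give a two-sided p below 0.125.

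The orientations were also set against each other. Cdh5, Esam, Kdr, Tie1, Vwf, Nos3 and Oit3, 7 of 34, had ratios above 0 with AAV_Cre in Cy5 and below 0 with AAV_Cre in Cy3, against 11.8% of all genes. Wnt2, Sox7 and Sox18, 3 of 34, had the opposite pattern, against 15.0% of all genes. Both patterns together held 10 of 34 genes, against 26.8% of all genes, so the count was close to the share over the array. The median of the list was -0.018 for the orientation means of arrays 1 and 2 and -0.24 for those of arrays 3 and 4, while the medians of all genes were -0.032 and 0.023. The dye effect in limma, which tests the orientation difference, was called for 0 of 34 genes, against 2.66% of all genes. Without adjustment 16 of 34 had a dye p under 0.05, against 25.8% of all genes, and the smallest adjusted p was 0.071, for Dnase1l3.

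**Figure D2:**
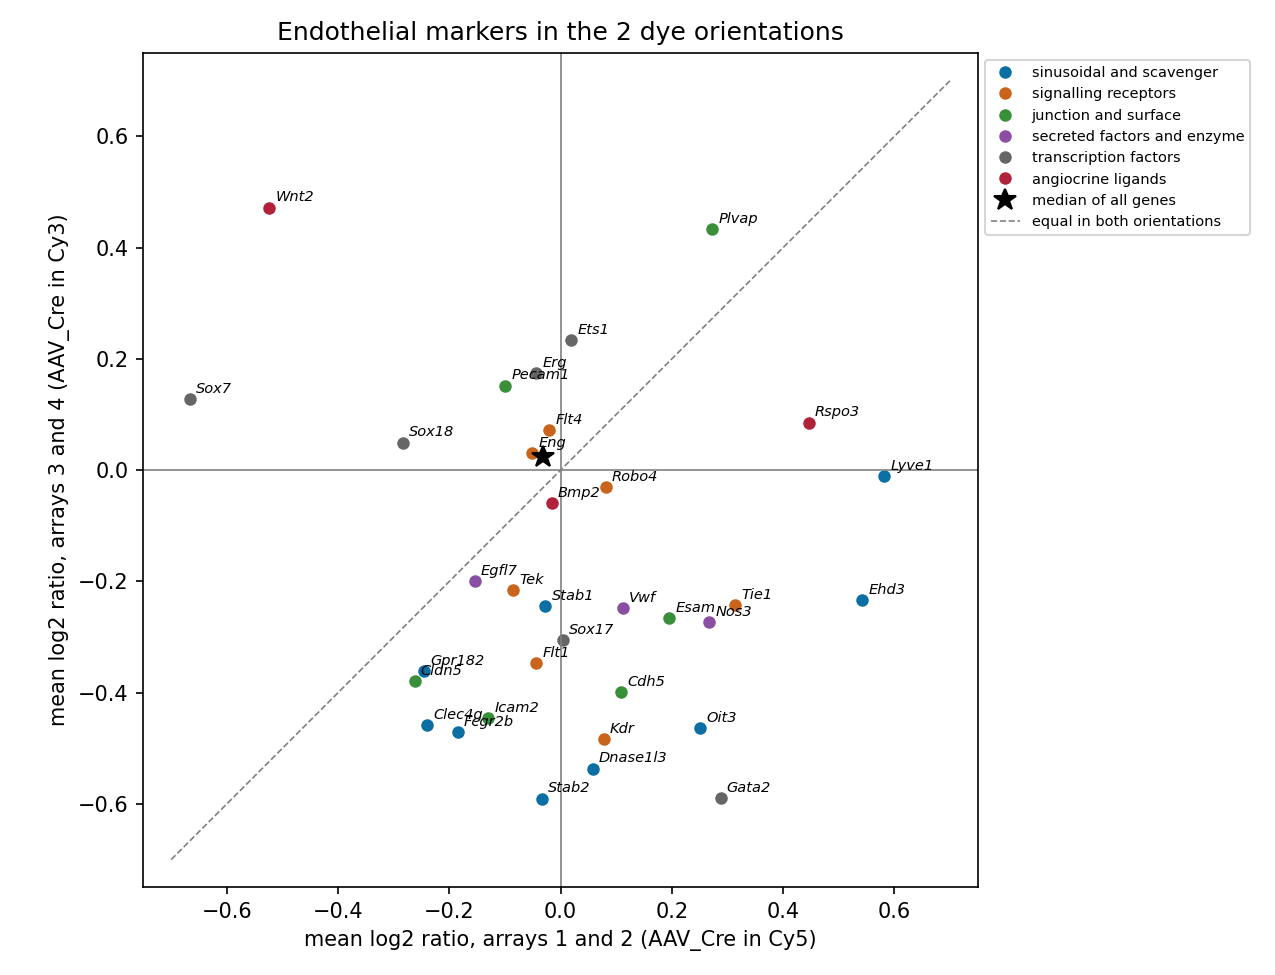
Mean log2 ratio of AAV_Cre over AAV_Null on arrays 3 and 4 (vertical axis) against arrays 1 and 2 (horizontal axis) for the 34 endothelial genes, coloured by role, with the median of all genes as a star and a dashed line where both orientations are equal. Most genes lie below the dashed line, and the genes in the lower right corner include Oit3, Kdr and Nos3.

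Across the 34 genes, the log2 ratios of arrays 1 and 2 correlated at 0.66 and those of arrays 3 and 4 at 0.69, where all genes gave 0.66 and 0.49. Between orientations the correlation was -0.23 to -0.025, against 0.069 to 0.19 over all genes. Arrays of an orientation share the dye assignment, and genes of 1 array share its RNA, so these values are a description.

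Several genes had more than 1 tested probe, which read the same RNA on the same array. For Nos3, the probe printed above lies 402 bases from the brighter one and read -0.13, -0.18, 0.31 and 0.013, where the brighter probe read 0.32, 0.21, -0.22 and -0.32. The dimmer Nos3 probe had 7 to 10 usable spots per array with a spot SD of 0.22 to 0.36. For Kdr, the second probe, 1086 bases away, read -0.24, -0.14, -0.013 and 0.13, with its lower values on arrays 1 and 2, where the brighter probe was higher. Both Kdr and Nos3 thus changed sign between orientations on their brighter probe, while their second probes did not follow it. The second Nos3 probe changed sign in the reverse direction. It was dim, with a mean log2 intensity of 7.08 against 10.09 for the brighter probe.

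The Ets1 probe printed above is the brighter one, and a second probe 3034 bases away in the same transcript read 0.40, 0.37, 0.081 and -0.088. The higher values were on arrays 1 and 2 for that probe and on arrays 3 and 4 for the printed one, and the fitted ratios of 0.13 and 0.19 were close. For Flt1, a second probe from another transcript read 0.36, 0.16, -0.43 and -0.13, fitted at -0.010, and a further probe was well above background in 0 channels. In Stab2 and Flt1, each tested probe had its lowest value on array 3.

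**Figure D3:**
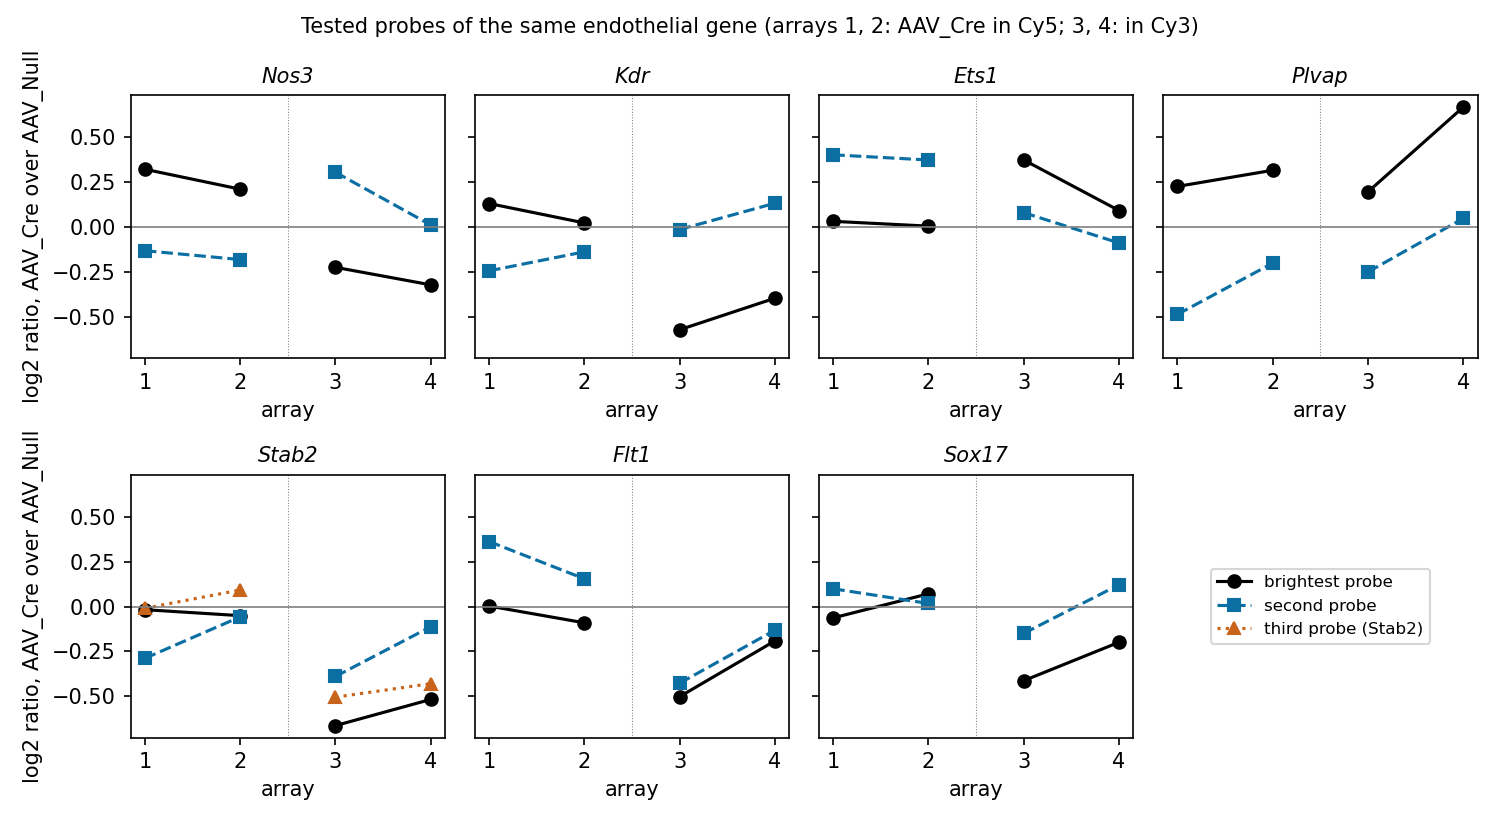
Log2 ratio of AAV_Cre over AAV_Null (vertical axis) on arrays 1 to 4 (horizontal axis) for each tested probe of 7 endothelial genes, with the brightest probe in black and other probes in blue or orange. The lines of Nos3, Kdr and Ets1 cross between the orientations, and those of Plvap stay apart by 0.45 to 0.71.

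Other endothelial genes and the pathways that endothelial cells read or feed were followed in further lists. Of 41 measured endothelial genes outside the 36, 1 was called higher, against 1.82% of all genes, and 2 lower, against 0.995%. Myct1, a gene of endothelial cells, rose, reading 1.02, 0.84, 0.52 and 0.35 with a fitted ratio of 0.68 ± 0.063 (SE, limma adjusted p = 0.022). Ephb4, the ephrin receptor of veins, which was chosen after its values were seen, fell by 0.41 on the log2 scale, reading -0.27, -0.35, -0.51 and -0.51 (limma adjusted p = 0.036). Tm4sf1, a surface protein of endothelial cells, fell by 0.44, reading -0.55, -0.43, -0.48 and -0.31 (limma adjusted p = 0.042). The median of those 41 genes was -0.037, and by array it was 0.074, 0.079, -0.21 and -0.23. Of them, 15 of 41 had ratios above 0 with AAV_Cre in Cy5 and below 0 with AAV_Cre in Cy3, as had 8 of 15 hepatocyte genes, against 11.8% of all genes. The medians of the orientation means were 0.065 and -0.19 for the 41 genes and 0.14 and -0.33 for the hepatocyte genes.

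Of 8 measured VEGF and angiopoietin ligands, 0 were called, and Vegfb had the smallest p with a fitted ratio of -0.24 (limma adjusted p = 0.15). Of 10 Notch pathway genes, 0 were called, and Notch1, a receptor that limits vessel sprouting, had a fitted ratio of -0.21 (limma adjusted p = 0.12). Of 15 hepatocyte genes that respond to Wnt, 0 were called, and the fitted ratio was below 0 for 10 of them, with a median of -0.064. Cyp1a2, a pericentral cytochrome P450 and the gene of smallest p, read 0.51, 0.16, 0.43 and 0.45 (limma adjusted p = 0.080). Of 17 BMP and hepcidin pathway genes, 1 was called. Over the whole array, 2.81% of genes were called in either direction. Id1, a direct target of BMP signalling, was the gene called. It rose, reading 0.92, 0.82, 0.59 and 0.91 with a fitted ratio of 0.81 ± 0.072 (SE, limma adjusted p = 0.022). Unadjusted, limma gave p under 0.05 for 2, 2, 6 and 6 genes of the ligand, Notch, Wnt and BMP lists. Over the whole array it did so for 3649 of 16081 genes. In the 4 lists, 1, 0, 3 and 4 of these genes had a ratio above 0, and 1, 2, 3 and 2 had a ratio below 0.

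Markers of the other liver cell types were measured on the same arrays. Of 15 hepatocyte genes, 1 was called, against 2.81% of all genes. Trf, the transferrin gene, was called lower at -0.52 (limma adjusted p = 0.044), but read 0.27, 0.33, -1.18 and -1.51. Its dye effect was also called, at 0.82 ± 0.073 (SE, limma adjusted p = 0.027). The dye effect was called for 5 of the 15 genes, against 2.66% of all genes. The hepatocyte medians were 0.20, 0.12, -0.063 and -0.62 on arrays 1 to 4. Of 17 Kupffer cell and macrophage genes, 0 were called. Mpeg1 had the smallest adjusted p of 0.074 in limma, and its ratio of 0.69 was the highest of the list. The fitted ratio was below 0 for 13 of the 17 genes, against 50.8% of all genes, with a median of -0.20. By array the medians were -0.32, -0.17, 0.34 and -0.64. Arrays 3 and 4 thus differed in macrophage markers while their endothelial medians were alike.

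Of 16 stellate and matrix genes, 1 was called, against 2.81% of all genes. Col3a1, a fibrillar collagen, was the gene called and rose by 0.47 ± 0.065 (SE, limma adjusted p = 0.044). The list medians were 0.26, 0.30, 0.082 and 0.29. Of 6 cholangiocyte genes 0 were called, with Sox9 at 0.22 (limma adjusted p = 0.12), and of 9 lymphocyte genes 0 were called, with Cd79a at 0.14 (limma adjusted p = 0.22). Of 3 mesothelial genes, 1 was called, against the same 2.81%. Msln, mesothelin, was the gene called and rose, reading 0.023, 0.30, 0.76 and 0.78 with a fitted ratio of 0.47 (limma adjusted p = 0.047). Unadjusted, limma gave p under 0.05 with a ratio above 0 for 8 of 16 stellate and matrix genes, against 11.6% of all genes. With a ratio below 0 it was 0 of 16, against 11.1%. Of the 16, 7 were above 0 on 4 of 4 arrays, against 12.1% of genes measured on 4 arrays. In either direction, the unadjusted p in limma was under 0.05 for 5 of 15 hepatocyte genes and 4 of 17 macrophage genes. The count was 2 of 3 mesothelial genes, 1 of 6 cholangiocyte genes and 1 of 9 lymphocyte genes, against 3649 of all 16081 genes. Of these, 1 hepatocyte gene lay above 0 and 4 below, and 2 macrophage genes lay above and 2 below. Those of the mesothelial, cholangiocyte and lymphocyte lists lay above 0. The part of these cell types in the endothelial values was not tested.

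**Figure D4:**
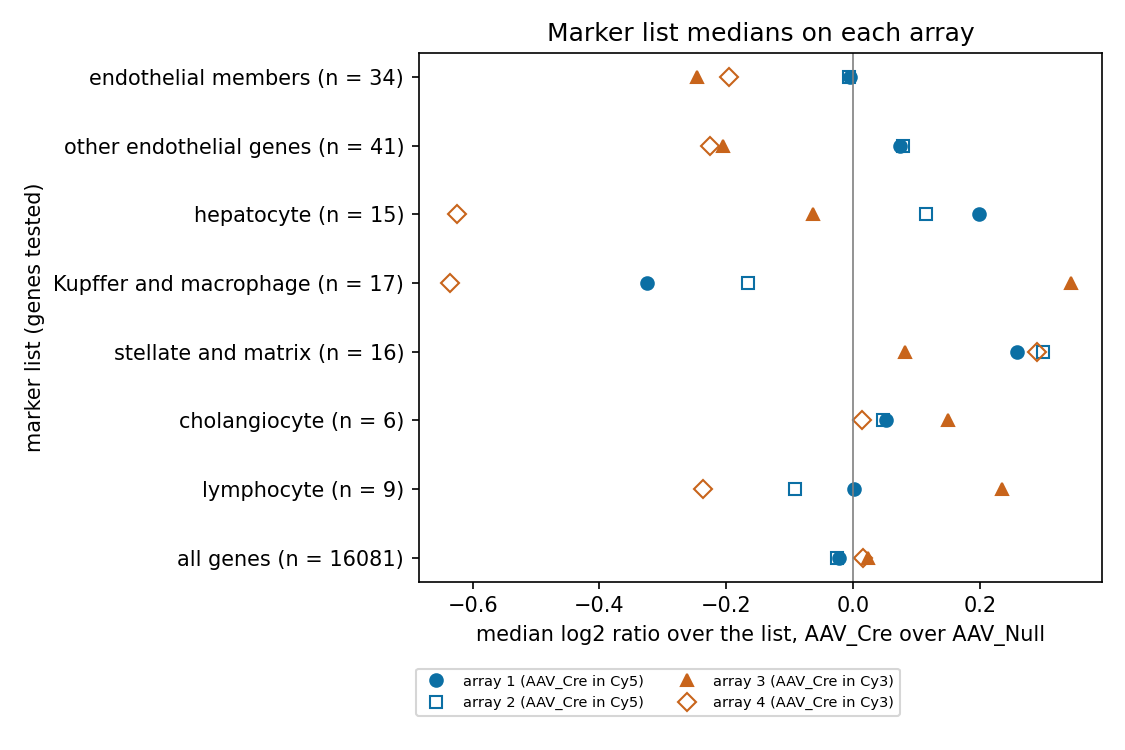
Median log2 ratio of AAV_Cre over AAV_Null (horizontal axis) over each marker list (vertical axis, with the number of genes tested), with a blue point for arrays 1 and 2 and an orange point for arrays 3 and 4. Both endothelial lists lie near 0 or above on arrays 1 and 2 and between -0.25 and -0.20 on arrays 3 and 4, and the macrophage list is widest, from -0.64 to 0.34.

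The count of endothelial genes called depended on the processing. Without background correction it was 8 of 34, against 8.79% of all genes, and with the authors' deposited log2 values it was also 8, against 8.68%. In both cases Cldn5, Clec4g, Dnase1l3, Fcgr2b, Gpr182, Icam2 and Stab2 were called lower and Lyve1 higher. The fitted log2 ratios without background correction and from the deposited values differed by at most 0.017 over the 34 genes. A separate-channel fit called 11, against 16.0% of all genes: the same 8 with Egfl7 and Kdr lower and Plvap higher. With probes well above background in all 8 channels, Clec4g and Icam2 were called lower, 2 of 30, against 4.16%, at adjusted p of 0.0497 and 0.0498 in limma.

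The dye effect was likewise called for 8 genes without background correction (9.02% of all genes) and for 8 with the deposited values (6.93%). It was called for 12 genes in the separate-channel fit (18.0%), for 17 with median centring in place of loess (21.2%), and for Gata2 and Tek with the Agilent processed signals (2.30%). Dnase1l3, Gata2, Kdr, Lyve1, Nos3, Oit3 and Stab2 had it called without background correction, with the deposited values, in the separate-channel fit and with median centring.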

How the data were processed

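Per the file headers, Agilent Feature Extraction 11.5.1.1 read the spot and local background intensity of both dyes. The same software subtracted background and normalised the dyes to give a processed intensity and a log10 ratio (Cy5 over Cy3), per the file headers. The authors also deposited log2 values, with limma named in the submitters' processing notes without its steps. Set against the scanner log10 ratio, its slopes of 3.34, 3.33, -3.29 and -3.39 on arrays 1 to 4 place it on a log2 scale as AAV_Cre over AAV_Null. Its medians were -0.022, -0.038, 0.035 and 0.041, and its normalisation is not given in the sources used here. The labels describe 2 ways of labelling RNA, and it is unclear which applied.

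Here, spot intensities were corrected with normexp (offset 50) and normalised by loess with controls at weight 0 (limma 3.58.1, R 4.3.3). Outlier spots were left out unless a probe lost all, and spots of a probe were averaged. Probes well above background in at least 3 of 4 channels of a treatment, and measured on at least 3 arrays in both orientations, were fitted with a treatment and a dye effect. A gene took its brightest probe. Benjamini-Hochberg adjustment ran over 16081 genes (threshold 0.05), with 2.66 prior and at most 2 residual degrees of freedom. The p-values rest on how far arrays of 1 orientation differ, which may be technical, and the SE leave out differences between the RNA pairs of the orientations. The 4 arrays limit the precision (median SE of a log2 ratio 0.063).

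The genes, lists and tests were chosen with earlier results of these data known. All 36 genes are named, and of each other list up to 2 called genes of largest change, or the gene of smallest p, with Ephb4 added after its values were seen. Alternatives left out the dye effect, fitted the channels separately (statmod 1.5.0), or used other background corrections, normalisations, filters, probe rules and empirical Bayes settings, or the deposited values, and each array was left out in turn. Symbols and promoters came from RefSeq (GRCm38.p6), and probe positions came from the array files (mm9).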

Additional observations from a re-analysis of the deposited data

Results flagged for a closer look

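In 10 of the 34 endothelial genes every array of 1 dye orientation lay on the opposite side of 0 from every array of the other, which was also found in 26.8% of all genes measured on 4 arrays. The mean of arrays 1 and 2 minus the mean of arrays 3 and 4 was 0.71 for Oit3, 0.56 for Kdr, 0.56 for Tie1, 0.54 for Nos3, 0.51 for Cdh5, 0.46 for Esam and 0.36 for Vwf. It was -0.996 for Wnt2, -0.79 for Sox7 and -0.33 for Sox18. The dye effect in limma tests this difference, and its adjusted p was 0.076 for Tie1, 0.077 for Wnt2, 0.080 for Oit3, 0.081 for Nos3 and 0.085 for Kdr. It was 0.093 for Esam, 0.13 for Cdh5, 0.14 for Sox18, 0.15 for Vwf and 0.19 for Sox7.

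In 0 of 34 genes did 1 array stand apart from the other 3 by Dixon's 95% limit for 4 values. About 1.7 would be expected for 4 values drawn from 1 normal distribution. The arrays hold 2 dye orientations with different RNA pairs, which can lower this count, so no conclusion is drawn from it.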

How the results depend on the processing

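The number of genes called over the array was 452, and it was 274 without a dye effect, 2529 in a separate-channel fit, 1414 without background correction, 733 with Agilent processed signals, 762 with median centring, 299 with no filter on dim probes, 1386 with the authors' deposited log2 values and 0 with trended and robust eBayes in limma (3346 at an unadjusted p under 0.05). With each array left out in turn it was 0 to 37. The cause of these moves was not tested, beyond the fewer arrays of the last. The endothelial genes called in limma were 0 of 34, and became 11 in the separate-channel fit, 8 without background correction, 8 with the deposited values and 2 with all 8 channels well above background. They stayed at 0 under the other 12 alternatives, 4 of them an array left out, where 7 to 15 genes had an unadjusted p under 0.05. The genes with a dye effect called were 0, and became 12, 8 and 8 in the first 3 of those settings, 2 with Agilent processed signals and 17 with median centring; a fit without a dye effect gives no value. The endothelial median of -0.11 was below 0 under all 16 alternatives, from -0.13 to -0.044. Each alternative kept array 3 or array 4 or both, which held the lower values. The alternatives therefore cannot show whether the median stays below 0 without that orientation. A sign changed in 5 genes under at least 1 alternative over 4 arrays, and 0 called values reversed.

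Each log2 ratio already pairs the treatments within an array, and no other pairing was fitted.

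Dim probes limit Gata2, Sox7, Tek and Wnt2, and Emcn and Wnt9b have no test.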
